A study of Mus musculus with 28 samples.

Results

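The Rbfox genes of the mouse, Rbfox2, Rbfox1 and Rbfox3, were examined in cranial neural crest cells for H3K27ac, the acetylated form of histone H3 at lysine 27, which marks promoters and enhancers in use. They are 3 of 21883 protein-coding genes with a position on chromosomes 1 to 19, X and Y. They were chosen by name, and the intervals over each gene and within 100 kb outside it were taken. The choice was made with results of this same interval list in view, so the values below are a description and none was tested. The series holds 28 libraries, of which 25 are chromatin immunoprecipitations in 22 groups, of wild-type, Ezh2cKO and HoxA2OE genotypes, from E8.5 progenitors and E10.5 populations, and 3 are inputs. The values here rest on 4 of them, the wild-type E10.5 H3K27ac libraries of the sorted populations labelled FNP, Mx, Md and PA2, with 1 library each. The marker used for sorting is not given in the sources used here. Their reads were merged by the authors before intervals were called, so each interval belongs to the pool and to no single population, and no value has a replicate error.

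Rbfox proteins bind RNA at the sequence GCAUG through a single RNA recognition motif and switch exons in or out of transcripts, largely according to whether the motif lies before or after the exon. Rbfox2 is made in many embryonic and adult tissues, and its loss from neural crest in mice gives a cleft palate. Rbfox1 is made in neurons, heart and skeletal muscle, and Rbfox3, better known as the antigen NeuN, marks the nuclei of mature neurons. The proteins work inside a large assembly of splicing regulators (LASR).

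The whole list held 125826 intervals, with a median score of 111 (quartiles 75 and 253) and a median width of 271 bp. The score is the authors' deposited value for each interval. By the convention of the caller it is 10 times −log10 of the q-value, so it rises with the number of merged reads. It ranks intervals within this list only. Sequencing depth is unknown. A score of 1000 or more was reached by 11.6% of all intervals, and that limit, chosen after the scores were seen, is used below to speak of high scores.

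Rbfox2 held a dense set of H3K27ac intervals, a few of them strong. Its neuronal paralogues held fewer per 100 kb of gene, without a strong one among them. Rbfox2 held 37 intervals over 229.4 kb (chr15:77078990-77308434, GRCm38), which is 16.1 per 100 kb of gene. Rbfox1 held 60 over 1.53 Mb (chr16:5884793-7412480), or 3.93 per 100 kb. Rbfox3 held 15 over 421.8 kb (chr11:118489760-118911597), or 3.56 per 100 kb. Per length, Rbfox2 therefore had 4.11 times as many intervals as Rbfox1 and 4.54 times as many as Rbfox3, whereas Rbfox1 and Rbfox3 differed by 1.1 times. These ratios compare genes of unlike length. Protein-coding genes of at least 1 Mb, the class of Rbfox1, had a median of 1.68 per 100 kb, against 6.08 for those of at least 100 kb. Intervals covered 6.35% of Rbfox2, 1.07% of Rbfox1 and 1.15% of Rbfox3. With scores of at least 100, the densities were 7.85, 1.9 and 0.948 per 100 kb in the same order of genes. Rbfox2 then had 4.13 times the density of Rbfox1 and 8.27 times that of Rbfox3, where only 4 intervals were left.

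**Figure D1:**
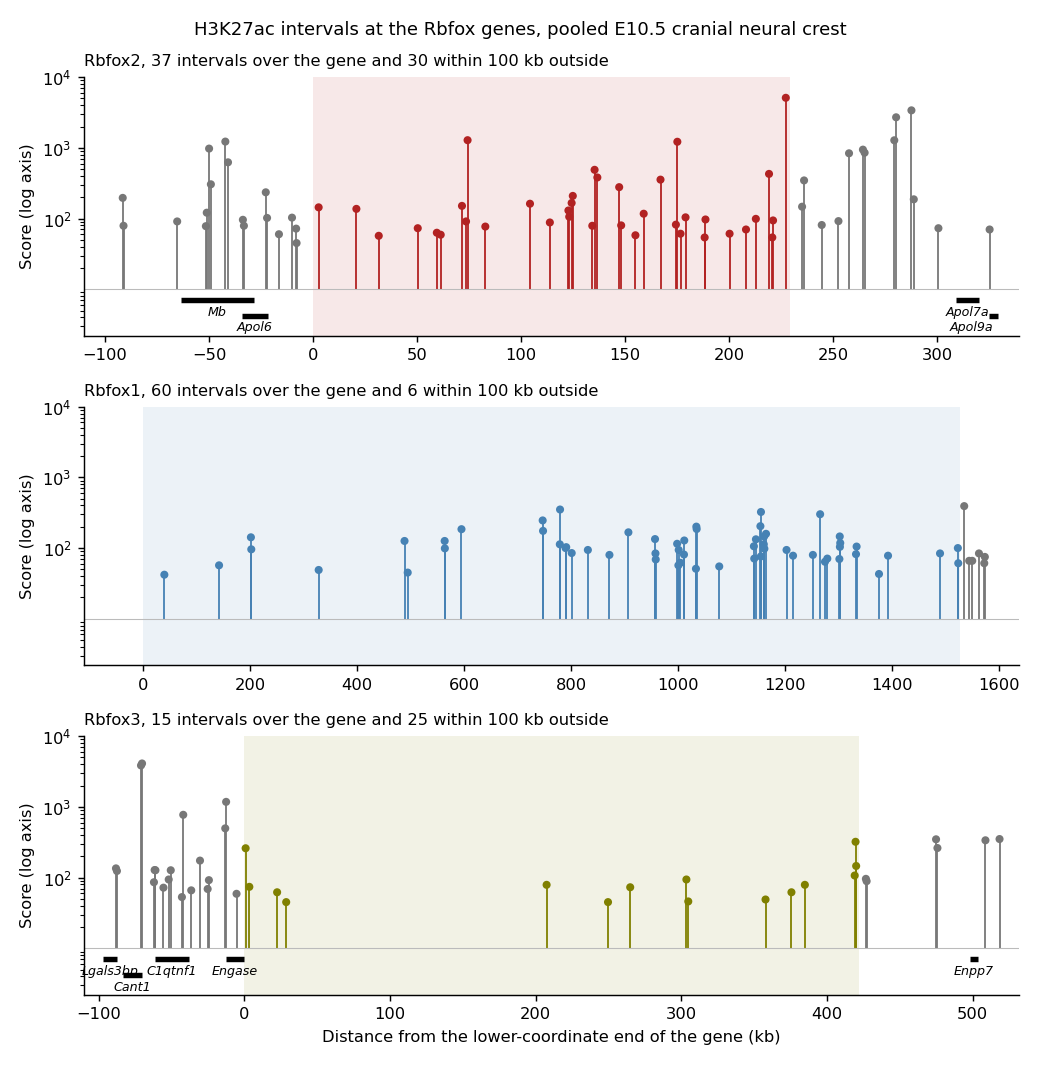
H3K27ac intervals at Rbfox2 (top), Rbfox1 (middle) and Rbfox3 (bottom). The horizontal axis is distance in kb from the lower-coordinate end of the gene, on a different scale in each panel, and the vertical axis is the score on a log axis. Each stem is an interval, coloured over the gene (shaded) and grey in the 100 kb on either side, and black bars are neighbouring protein-coding genes. Rbfox2 has stems above 1000 at its right end, inside the gene and in both flanks. No stem over Rbfox1 or Rbfox3 passes 351.

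The 3 genes stand in different places among long genes. By intervals per 100 kb of gene, Rbfox2 ranked 95 of the 2428 protein-coding genes of at least 100 kb, with 96.1% of these long genes lower. Rbfox1 ranked 1584, with 34.8% lower, and Rbfox3 ranked 1663, with 31.5% lower. The median of the long genes was 6.08 (quartiles 2.76 and 9.78). With scores of at least 100, Rbfox2 ranked 197, Rbfox1 1531 and Rbfox3 1950 in the same genes. The neighbours of Rbfox2 in that order were Eya1, Akap7 and Bnc2 just above and Kazn, Mbnl2 and Pakap just below, all between 16.0 and 16.2 per 100 kb. Eya1 encodes a transcriptional co-activator of craniofacial development, and Mbnl2 encodes another splicing regulator. The 5 densest long genes were Nxn, Msrb3, Hunk, Usp29 and Prtg, from 25.4 down to 21.8 per 100 kb. Rbfox1 ranked 16 among the 59 genes of at least 1 Mb, which had a median of 1.68 per 100 kb and a range of 0.0418 to 10.2. It was thus below the middle of all long genes and above the middle of genes of its own size class. The densest of that class was Robo1, the receptor for Slit guidance cues, with 104 intervals.

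**Figure D2:**
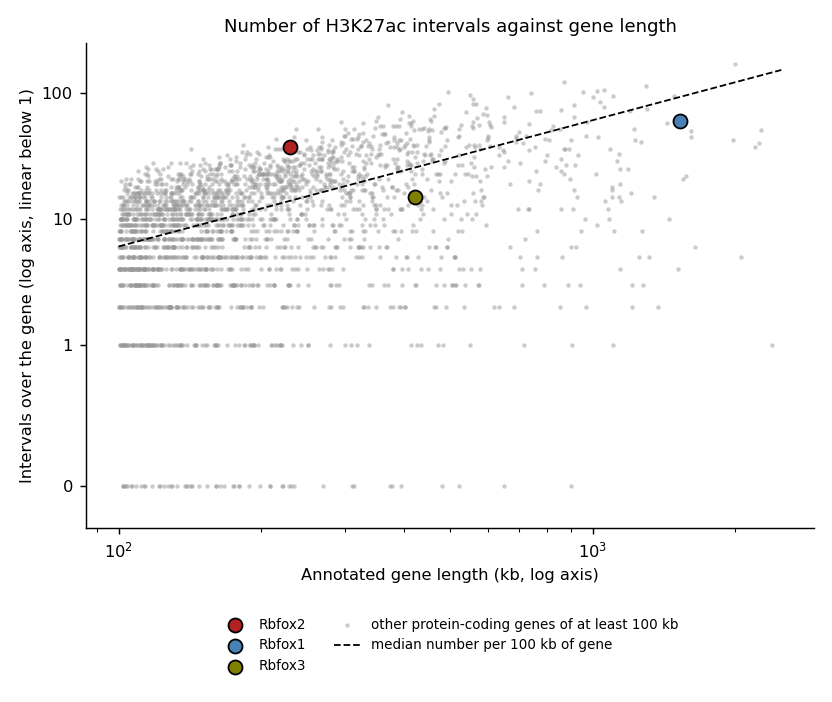
Number of intervals over a gene (vertical axis, log above 1) against annotated gene length in kb (horizontal log axis). Large coloured points are Rbfox2 (37 intervals), Rbfox1 (60) and Rbfox3 (15), grey points are the other protein-coding genes of at least 100 kb, and the dashed line marks 6.08 intervals per 100 kb, the median of all 2428. Rbfox2 lies above the line, and Rbfox1 and Rbfox3 lie below it.

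The interval with the highest score over Rbfox2 scored 5102 and was 1426 bp wide (chr15:77305589-77307014). It was also the widest over the gene. It lay 1.4 kb inside the higher-coordinate end of the annotated gene, and 97.35% of all intervals in the list scored lower. Because it stopped 1420 bp short of that end, it missed a window of 1 kb around the gene ends. In that window 1 of the 3 genes, Rbfox3, had an interval, as did 65.0% of all protein-coding genes. The Rbfox3 interval scored 260 and lay at the lower-coordinate end, which is not the start of this minus-strand gene. With a window of 2.5 kb, Rbfox2 and Rbfox3 had one and Rbfox1 had none, while 70.8% of all protein-coding genes had one. Counted anywhere in the gene, all 3 had an interval, and so did 73.1% of protein-coding genes. The best score of Rbfox2 within 2.5 kb of an end was higher than that of 84.2% of protein-coding genes, and that of Rbfox3, 321, was higher than that of 42.2%. A score of at least 1000 within 2.5 kb of an end was found at 48.4% of protein-coding genes, so a strong interval at the end of Rbfox2 is common by itself.

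Inside Rbfox2, 2 further intervals had high scores. One scored 1283 over 1023 bp (chr15:77152755-77153777), 154.7 kb from the higher-coordinate end, and the other scored 1219 over 1129 bp (chr15:77253634-77254762), 53.7 kb from it. Next in order were intervals with scores of 489 at chr15:77213856-77214810 and 428 at chr15:77297952-77298444. The first of these belonged to a run of 7 intervals between 77201702 and 77216112, whose scores ran from 79 to 489 and whose other wide member, of 805 bp, scored 381. All other intervals over the gene scored 355 or less. The median over the gene was 99, below the list's median of 111. A score of 100 was reached by 18 of the 37 intervals (48.6%), against 56.1% of the whole list. A score of 1000 was reached by 3 of the 37, and by 11.6% of the whole list.

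Intervals over Rbfox2 were more frequent toward the higher-coordinate end. The gene was divided into 4 equal parts of 57.4 kb, which held, from the lower-coordinate end, 4, 8, 12 and 13 intervals. The longest stretch without an interval was 21.2 kb (from 77161961 to 77183118), and the median gap between neighbouring intervals was 5.61 kb. None of the intervals over the gene lay within 1 kb of an end of another annotated gene, although a lncRNA gene, 1700109K24Rik, and a pseudogene lie inside Rbfox2.

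Rbfox1 had many intervals and no strong one. The 60 intervals over the gene scored between 42 and 351, with a median of 98.5, close to the 99 of Rbfox2. The 5 highest were 351 at chr16:6664189-6664552, 324 at chr16:7039862-7040094, 301 at chr16:7150244-7150932, 246 at chr16:6631716-6632114 and 204 at chr16:7038761-7039075. The third of these was the widest over the gene, at 689 bp. Neither Rbfox1 nor Rbfox3 held an interval with a score of 1000 or more, whereas Rbfox2, 65.2% of genes of at least 100 kb and 45.8% of genes of at least 1 Mb did. The best score of Rbfox2 was higher than that of 84.3% of long genes, that of Rbfox1 higher than in 16.5% and that of Rbfox3 higher than in 14.9%.

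The intervals of Rbfox1 lay mainly in the higher-coordinate 50% of the gene, with 48 of 60 there. Its 4 equal parts of 382 kb held 5, 7, 24 and 24 from the lower-coordinate end. The longest stretch without an interval was 160 kb (from 6213224 to 6373475). A run of 7 intervals lay between 7038761 and 7049640, with scores from 76 to 324. Another run of 6 lay between 6883162 and 6896687, with scores from 57 to 128. Of the intervals over Rbfox1, 2 were within 1 kb of an end of Gm36824, a lncRNA gene inside Rbfox1, with scores of 142 and 96.

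Rbfox3 held its intervals largely near its ends, with 4 in each of the outermost of 10 equal parts of the gene. The 15 intervals scored between 45 and 321, with a median of 74. The highest score, 321, lay 2.0 kb inside the higher-coordinate end (chr11:118909043-118909623) between neighbours with scores of 107 and 146. The second, 260, was the widest over the gene at 633 bp and lay at the lower-coordinate end (chr11:118490292-118490924), facing the end of Engase, a gene that encodes a deglycosylating enzyme and lies 0.551 kb away. The fifth highest score was 94, at chr11:118792967-118793470, within 1 kb of an end of the lncRNA gene Gm11750. A stretch of 179 kb from 118518462 to 118697021 had no interval. Its 4 equal parts of 105 kb held 4, 1, 4 and 6 intervals from the lower-coordinate end.

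**Figure D3:**
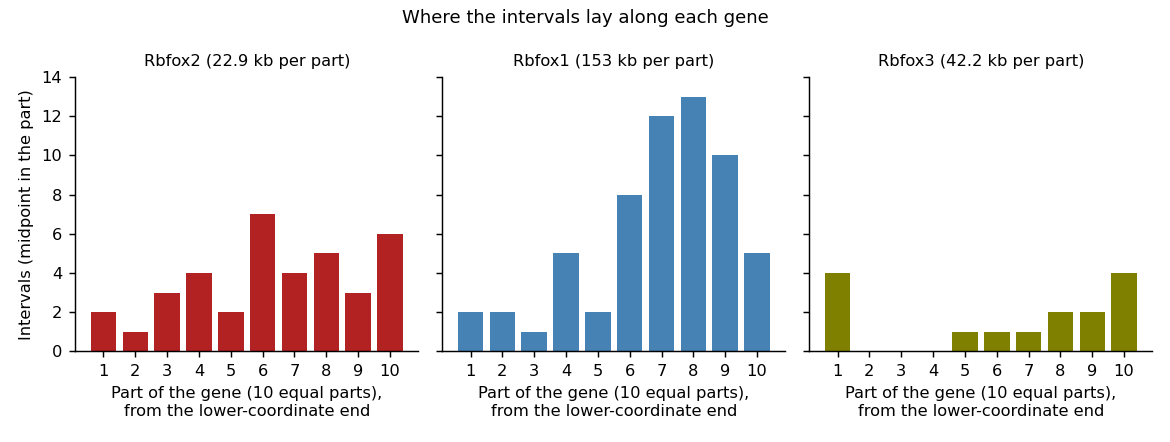
Intervals (vertical axis) counted by midpoint in 10 equal parts of Rbfox2 (left), Rbfox1 (middle) and Rbfox3 (right), numbered on the horizontal axis from the lower-coordinate end, with the length of a part above each panel. Rbfox1 peaks at 13 intervals in part 8, Rbfox3 has none in parts 2 to 4, and each part of Rbfox2 holds at least 1.

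RefSeq promoter windows of GRCm38.p6, from 250 bases before to 50 after a transcription start, cover 2 of the 3 genes, with 2 windows for Rbfox1 and 1 for Rbfox3. They are shown because none of the 3 was overlapped by an interval, whereas 45.2% of 32817 windows were. The 250 bases before each start follow in the direction of transcription, with CpG dinucleotides in capitals.
Rbfox1, outer start, chr16:5884543-5884792, plus strand: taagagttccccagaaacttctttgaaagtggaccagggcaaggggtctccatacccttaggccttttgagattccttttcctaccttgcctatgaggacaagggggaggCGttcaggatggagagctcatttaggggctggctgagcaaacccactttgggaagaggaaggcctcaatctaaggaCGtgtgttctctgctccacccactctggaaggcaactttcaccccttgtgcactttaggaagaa
Rbfox1, inner start, chr16:7069585-7069834, plus strand: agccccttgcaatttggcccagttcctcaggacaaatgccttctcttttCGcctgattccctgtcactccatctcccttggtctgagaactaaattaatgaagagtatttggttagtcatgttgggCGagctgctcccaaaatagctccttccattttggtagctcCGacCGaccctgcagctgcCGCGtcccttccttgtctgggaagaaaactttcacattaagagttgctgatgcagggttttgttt
Rbfox3, inner start, chr11:118761042-118761291, minus strand: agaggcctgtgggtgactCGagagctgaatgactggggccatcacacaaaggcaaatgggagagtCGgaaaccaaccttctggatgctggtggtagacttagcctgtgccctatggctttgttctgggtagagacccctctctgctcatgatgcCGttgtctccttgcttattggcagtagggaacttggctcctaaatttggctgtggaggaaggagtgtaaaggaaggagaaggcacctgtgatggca

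These windows held fewer CpG dinucleotides than most windows overlapped by an interval. Over the full 300 bases the outer Rbfox1 window held 3 CpG dinucleotides, the inner one 7 and the Rbfox3 window 4. Windows overlapped by an interval had a median of 21 (quartiles 12 and 29), windows without one had a median of 3 (quartiles 2 and 6), and the median of all windows was 7. The sequence GGGCGG, the GC box, was searched on both strands and was in none of these windows. It was in 12.9% of windows without an interval, 63.3% of overlapped windows and 35.6% of all windows. The plus strand of Rbfox1 places its outer start at the lower-coordinate end, where the nearest interval in the direction of the gene was 39.7 kb away with a score of 42, and the nearest on the other side was 175 kb away. Around the inner start the nearest intervals were 20.2 kb before it, with a score of 159, and 17.8 kb after it, with a score of 94. The Rbfox3 start in the table is also an inner one, 151 kb inside the higher-coordinate end, and the nearest interval to it was 6.29 kb away, on its lower-coordinate side, and scored 73. On the minus strand of Rbfox3 the gene begins at its higher-coordinate end, for which the table has no window. There the intervals with scores of 107, 321 and 146 lay between 1.7 and 2.6 kb inside the gene.

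The surroundings of the 3 genes differed as well. Within 100 kb outside the gene, Rbfox2 had 30 intervals (17 on the lower and 13 on the higher-coordinate side), Rbfox1 had 6 (0 and 6) and Rbfox3 had 25 (19 and 6). The median over all protein-coding genes was 12, with quartiles of 6 and 19. Fewer flank intervals than at Rbfox2 were found at 95.5% of protein-coding genes, fewer than at Rbfox1 at 24.8% and fewer than at Rbfox3 at 89.2%. Per 100 kb, Rbfox2 held 16.1 intervals in the gene and 15.0 in its flanks, and Rbfox1 held 3.93 and 3.0. Rbfox3 held 3.56 in the gene and 12.5 in its flanks, where 19 of the 25 intervals lay on the lower-coordinate side. Without intervals at ends of other protein-coding genes, 16 remained in its flanks. The order of Rbfox2 and Rbfox3 depended on the limit, since flanks of 200 kb held 40 intervals at Rbfox2 and 69 at Rbfox3.

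High scores in the Rbfox2 flanks were more than 1 kb from annotated gene ends. On the higher-coordinate side, intervals scored 3391 (chr15:77365951-77367371, 57.5 kb from the gene), 2704 (chr15:77358883-77359775, 50.4 kb) and 1279 (chr15:77358140-77358673, 49.7 kb). Nearer to the gene on that side, scores were 943, 853 and 837 between 27.5 and 35.2 kb from it. On the lower-coordinate side, the highest score was 1226 (chr15:77036101-77037595, 41.4 kb), inside Mb, the gene of the oxygen-binding protein myoglobin. Others inside Mb, which held 8 intervals in all, scored 976, 624 and 305, and the rest scored between 78 and 121. None of the 4 intervals with scores above 1000 was within 1 kb of an end of any annotated gene, coding or not. Of all intervals that high on the chromosomes, 19.4% were so placed. As many as 4 such intervals in the flanks were found at 1.15% of protein-coding genes, and at least 1 at 27.2%. The count of 4 was set after the value of Rbfox2 was seen. The intervals with scores of 2704 and 1279 lay less than 1 kb apart and were counted separately. The one with 3391 ended within 2.5 kb of the lncRNA gene Gm3787, which starts at 77369493. These shares were not computed for joined intervals or for a limit of 2.5 kb. The protein-coding neighbours of Rbfox2 carried low scores at their ends, with 235 at those of Apol6, 70 at Apol9a and none at Apol7a, all apolipoprotein L genes, and none at Mb.

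At Rbfox3 the high scores outside the gene belonged to ends of other genes. Intervals with scores of 4113 and 3855 (chr11:118419207-118419785 and chr11:118418460-118419027) lay at the higher-coordinate end of Cant1, 70.0 and 70.7 kb from Rbfox3. Cant1 encodes a calcium-activated nucleotidase. An interval with a score of 1178 lay at the lower-coordinate end of Engase (chr11:118476971-118477417). Of the 25 intervals in the flanks, 9 were within 1 kb of an end of Cant1, Engase, C1qtnf1 or Lgals3bp, while Enpp7 had none at its ends, and no interval away from gene ends reached 1000. Rbfox1 has no protein-coding neighbour within 100 kb. Its highest flanking score was 392 (chr16:7419683-7420241), 7.2 kb past the higher-coordinate end, and exceeded every score over the gene.

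**Figure D4:**
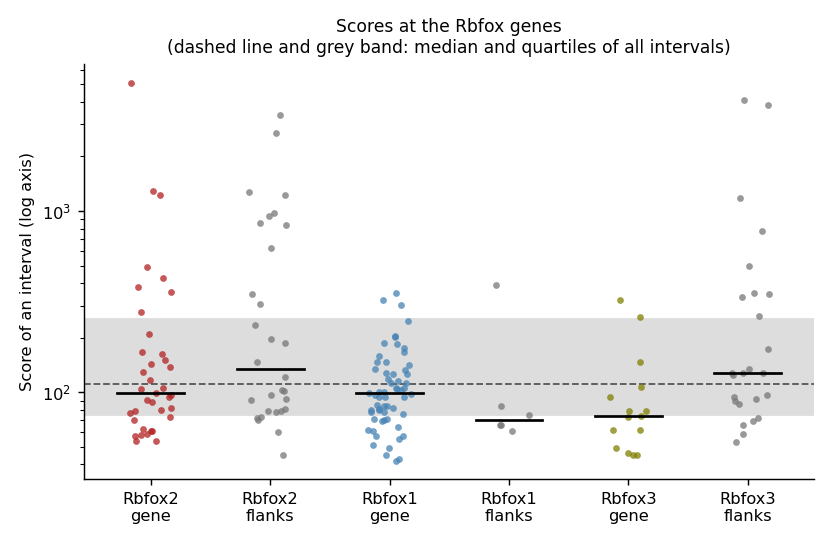
Scores (log axis) of the intervals over each gene and in its 100 kb flanks, with a point per interval and a black line at the median of each column. The dashed line and grey band are the median (111) and quartiles (75 and 253) of all 125826 intervals. Medians over the genes, 99 for Rbfox2, 98.5 for Rbfox1 and 74 for Rbfox3, lie below the dashed line, and the gene with points above 1000 is Rbfox2.

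The limit of 100 kb was close to strong intervals in some places. On the lower-coordinate side of Rbfox2 the last interval inside it was 91.3 kb away with a score of 196, and the first outside was 104 kb away with a score of 5838. On the higher side these were 95.7 kb and 70, and 118 kb and 82. For Rbfox3 they were 87.9 kb and 135, and 109 kb and 422, on the lower side, and 96.3 kb and 351, and 111 kb and 2964, on the higher side. Rbfox1 had no interval inside the limit on its lower side and a first one outside at 175 kb with a score of 892. On its higher side the last inside was 45.9 kb away with a score of 75, and the first outside 116 kb away with 59.

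Other splicing genes show how the 3 compare with their field. Of 30 regulators of tissue-specific exons, 21 (70.0%) had an interval within 1 kb of a gene end, near the 65.0% of all protein-coding genes. Their median score at the ends, counting those without an interval as 0, was 529, against 610 over all protein-coding genes. A score at the ends is the highest in the window around either end of a gene. Its interval can therefore lie outside the gene or away from its start. The highest belonged to Tia1 (13685), Ptbp2 (8549), the neuronal relative of Ptbp1, and Celf1 (7795). Without an interval there were Celf2, Celf3, Celf6, Elavl2, Esrp1, Mbnl1, Rbm20, Srrm3 and Srrm4. Rbfox2 likewise had none within 1 kb and had its 5102 within 2.5 kb of an end. Within 2.5 kb, 25 of the 30 regulators had an interval, against 70.8% of all protein-coding genes. Their median score there was 534, against 853. Mbnl1 had a high score inside the gene, 6260, and no interval within 1 or 2.5 kb of an end. Of the 7 LASR partners, which bind RNA together with Rbfox proteins, 6 (85.7%) were marked within 1 kb of an end. The highest were Hnrnpm at 14748, Hnrnpc at 10994 and Matr3 at 10506. Hnrnph1 was the exception and had 9367 within 2.5 kb. The median of the partners within 2.5 kb was 9367, against 853 over all protein-coding genes.

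Values differed among the neuronal members of other splicing families that are named here. Ptbp1, made in most tissues, scored 7282 at its ends, below its neuronal paralogue Ptbp2. Nova1 and Nova2, neuronal splicing regulators, scored 4014 and 548. Srrm4, a neural regulator of microexons, had no interval at an end and a best score of 175 in the gene. Celf4 had 510 at its ends and a best score of 1151 in the gene. Celf5 had 173 at its ends and in the gene, and Celf6 had none at an end and 423 in the gene.

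Markers of neurons that a sorted fraction could hold were read beside the neuronal paralogues. Of 12 neuronal markers, 8 (66.7%) had an interval at an end, against 65.0% of all protein-coding genes, with a median score of 152 against 610. Scores were highest at Elavl4 (4646), Map2 (1295) and Gap43 (738) and lowest among the marked ones at Elavl3 (81). Dcx, Snap25, Stmn2 and Syp had none at an end. Inside the gene, the best score was 2485 at Syp and 80 at Snap25, and Dcx and Stmn2 had none. Elavl3 and Elavl4 are also in the splicing list. Of 10 markers of cranial neural crest mesenchyme, 9 (90.0%) were marked, with a median of 1408 and the highest scores at Prrx2 (4697), Twist1 (3067) and Alx4 (2683). Tfap2a had none at an end and 2718 in the gene. The part of neurons or other cells in the weak intervals of Rbfox1 and Rbfox3 was not tested.

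**Figure D5:**
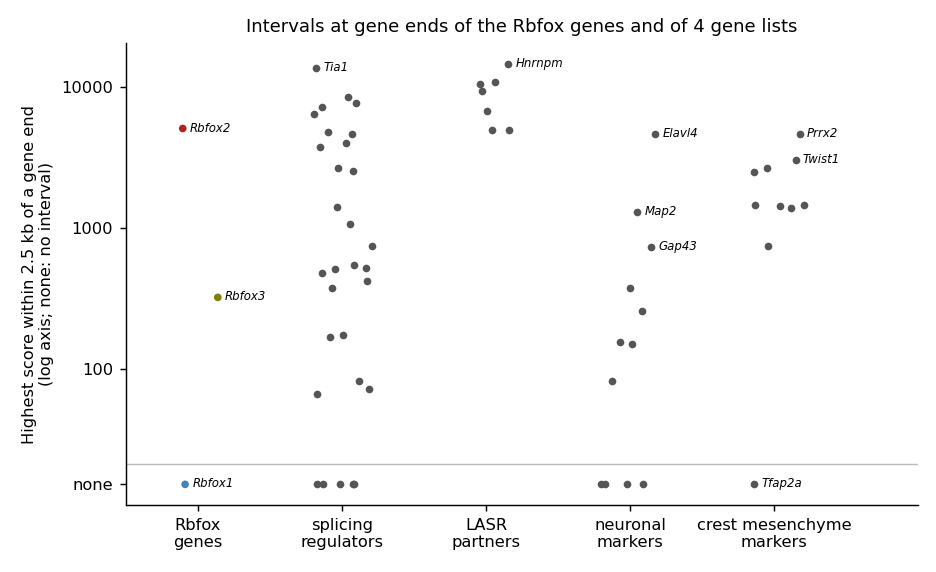
Highest score within 2.5 kb of either gene end (vertical log axis, with genes without an interval on the line marked none) for the Rbfox genes, 30 splicing regulators, 7 LASR partners, 12 neuronal markers and 10 crest mesenchyme markers, with a point per gene. Rbfox2 (5102) sits among the higher splicing regulators, Rbfox3 (321) among the lower marked ones and neuronal markers, and Rbfox1 on the line of genes without an interval.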

How the data were processed

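Chromatin of sorted cranial neural crest cells was immunoprecipitated and sequenced. The deposited note on the interval list states that the authors merged the reads of 4 wild-type E10.5 H3K27ac libraries and called intervals once. They used MACS2 2.1.3.3 with no model, a shift of 0, an extension of 141 bp, all duplicates and a q-value below 0.001. The note names no control, so piled-up reads can enter as intervals. Bowtie 1.1.1, bcl2fastq 2.17 and GRCm38 come from the submitters' processing notes. The score is the authors' deposited value, 1 per interval. Interval starts and ends are as deposited, given here from base 1. Depth is unknown, and 24 libraries were not analysed here.

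Gene ends came from the RefSeq table of GRCm38.p6, which spans all transcripts of a gene and gives no exons. Intervals were assigned by an overlap of at least 1 bp, and counts were divided by gene length. The counting was checked on simulated intervals. Python 3.11.15, numpy 2.4.6, pandas 2.3.3 and matplotlib 3.10.9 were used. No test was run, since the list is 1 pooled call and the members and gene lists were chosen with earlier results of these data known. Named are the members, protein-coding neighbours within 100 kb, the 3 highest and all unmarked genes of each list, the 5 densest long genes and the 3 on either side of Rbfox2. Mbnl1, Ptbp1, Nova1, Nova2, Celf4, Celf5, Robo1, Hnrnph1 within 2.5 kb and the run limits were picked after their values were seen. Alternatives were other score, width, overlap, flank and window limits.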

Additional observations from a re-analysis of the deposited data

How the results depend on the processing

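Of 84 values under alternatives, 56 stayed within 1.5 times the value above and 28 did not. In every alternative run that counted intervals over the genes, Rbfox2 had more per 100 kb of gene than Rbfox1 and Rbfox3. Using midpoints left the counts over the genes unchanged at 37, 60 and 15 for Rbfox2, Rbfox1 and Rbfox3. Leaving out intervals at ends of other protein-coding genes could not change them, since none over these genes lay within 1 kb of such an end. No run matched genes by length. With scores of at least 100, Rbfox2, Rbfox1 and Rbfox3 kept 18, 29 and 4 intervals over the gene (7.85, 1.9 and 0.948 per 100 kb) and 18, 1 and 15 in the flanks, and the Rbfox2 to Rbfox3 ratio was 8.27. In the higher-scored 50% of intervals they kept 16, 23 and 3 over the gene (6.97, 1.51 and 0.711 per 100 kb) and 16, 1 and 15 in the flanks, with a ratio of 9.81. Joining intervals across gaps of 1 kb left 18 in the flanks of Rbfox2 and 15 in those of Rbfox3. Leaving out intervals at ends of other protein-coding genes left 16 at Rbfox3. A flank of 200 kb held 40 intervals at Rbfox2, 14 at Rbfox1 and 69 at Rbfox3, so Rbfox3 then had more than Rbfox2. A flank of 50 kb held 20, 6 and 11 in the same order of genes. An interval at a gene end was found for 2 of the Rbfox genes with a window of 2.5 kb and for 3 anywhere in the gene, against 1 in the main window. The depth of the libraries is unknown, so a stretch without an interval shows only that none passed the caller's limit. No paired analysis was possible because the 4 libraries are merged in 1 list and no value comes from a test.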
